A study of Lachancea waltii with 4 samples.

Results

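The genes described here are those of the budding yeast Kluyveromyces waltii (now Lachancea waltii) whose array probes hold the most G and C. They were found from the probe sequences alone. The GC content of each probe was averaged over the probes of a gene, genes on identifier prefixes held by at most 12 genes were left out, and the 200 genes of highest mean GC were taken from the 5193 genes of the array. Each gene identifier consists of a prefix such as Kwal_14 and a number after a dot. RNA, genomic DNA and the ratio of RNA to genomic DNA of these 200 genes were set against those of all other genes.

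The study measured absolute mRNA levels, which allow genes of a species to be ranked against each other. Strain NCYC 2644, with no mutation or treatment named in the labels, was grown at 30 °C to mid-log phase, and its total RNA was labelled with Cy3. Sheared genomic DNA labelled with Cy5 was hybridised to the same array as a reference. There were 4 replicate arrays, called arrays 1 to 4, which form 1 group and lay on 1 slide. The RNA signal of the median probe was 1191 to 1716 units and its genomic DNA signal 7939 to 9661 units, against 27.5 to 37 units of RNA signal and 7.5 to 15.5 units of genomic DNA signal in negative control spots. The level of a gene is the log2 of RNA over genomic DNA, relative to the median gene of the array. RNA and genomic DNA signals are given in the same way, each as log2 relative to its own median gene. Pearson's r between arrays, over genes, was 0.991 to 0.996.

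A duplex rich in G and C is held together more tightly than one rich in A and T, so a GC-rich probe can bind its labelled target more strongly. Array probes are therefore usually chosen within a narrow range of GC. A genomic DNA reference is used because the DNA of a single-copy gene is equally abundant for all its probes, which lets the strength of a probe cancel in the ratio. GC content also carries coding information. The wobble position, the third of a codon, can often change without changing the amino acid, and in many yeasts highly expressed genes prefer particular codons.

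The probes had been kept within narrow limits of GC, and the members form a short tail beyond them. Of 10386 probes of 55 bases, 10140 (97.6%) held 20 to 24 GC bases, 5610 of them exactly 24. More than 24 were held by 238 probes, and 99 of these held 30 (54.5% GC), the highest number on the array. The rule therefore took 2 unlike sets. The 121 GC-richest members lay above 43.6% GC, the value that 24 bases of 55 give, with a median of 50.9% and a range of 44.5% to 54.5%. The other 79 members were tied at 43.6% with 1598 further genes on large prefixes. They entered, and the 1598 did not, because ties were resolved in the order of gene names, and all of them carried the prefixes Kwal_0 (30 genes) and Kwal_14 (49 genes). All 200 members are described below, with the 121 GC-richest members and the 79 tied members kept apart. All 200 could be tested, 188 with 2 used probes and 12 with 1, as could 4992 of the other genes.

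**Figure D1:**
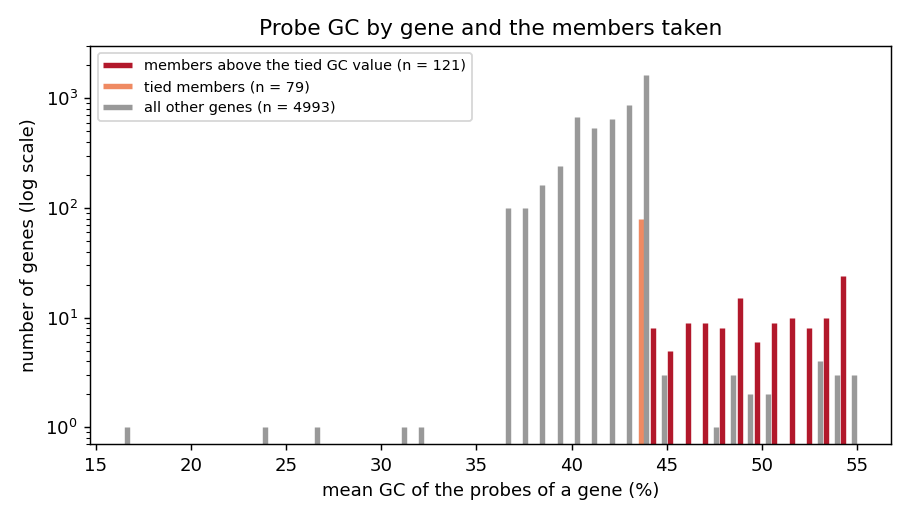
Number of genes (log scale) at each mean GC of their probes (percent), for the 121 members above the tied value, the 79 tied members and the 4993 other genes, drawn side by side where they share a value. The tied members stand at 43.6% beside a far larger number of genes of the same GC, and the few grey lines above them are 21 genes on small prefixes that the rule left out.

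At the edge of the rule, GC did not separate genes. The last genes taken in were Kwal_14.1578, with a level of 1.45, and Kwal_14.1606, with a level of 1.77. The first genes left out were Kwal_14.1636, with a level of -0.73, and Kwal_14.1641, with a level of 1.45. All of these have a mean probe GC of 43.6%.

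The GC-richest members were spread over 9 of the 10 large prefixes. They made up 1.39% (Kwal_34) to 3.42% (Kwal_55) of the genes of 9 large prefixes, and Kwal_0 held 0. By identifier, 9 pairs of them were neighbours, and whether they cluster within prefixes was not tested. Members of these pairs often had unlike levels, as in Kwal_27.12794 (-2.17) and its neighbour Kwal_27.12798 (4.98). Among their 121 genes, 81 had both probes above 24 GC bases and 40 had 1 such probe. The probes of a gene were separate, sharing no stretch, in 51 of the 121 GC-richest members (42.1%), against 67.0% of other genes. They overlapped by 50 bases or more in 25 (20.7%), against 12.5% of other genes, so that the 2 probes were then close to 1 measurement. None of the 200 members shared a probe sequence with another gene, against 78 of the other genes (1.56%).

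The added G and C was not confined to runs of G. Base composition of the probes of the GC-richest members was 26.2% A, 25.1% C, 25.2% G and 23.5% T, against 32.0% A, 19.7% C, 22.1% G and 26.2% T in other genes. The letters GGGG were found in 5 of their 242 probes (2.07%), in 8.23% of the probes of the tied members and in 4.55% of those of other genes. The letters CCCC were found in 4.13% of the probes of the GC-richest members, against 3.46% in other genes. Where exactly 1 of the 3 reading frames of a probe, read as written, held no stop codon (TAA, TAG or TGA), that frame was taken as the coding frame. This frame and its strand are inferred from the probe alone, and stop codons are themselves poor in G and C. In the 86 such probes of the GC-richest members (of 242), GC was 48.4%, 45.3% and 54.9% at the first, the second and the third codon position, against 46.6%, 34.5% and 44.4% in other genes. The difference between the sets was smallest at the first position. At the third position, GC of the GC-richest members was 52.0% in genes with a level below -1 (24 probes). It was 57.7% in those with a level above 3 (23 probes). In other genes the same classes had 42.9% (1157 probes) and 52.0% (189 probes). By levels without loess, GC at the third position was thus higher in the highly expressed class of both sets. In the GC-richest members this rests on few probes.

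The GC-richest members were brighter than other genes in both channels. Their median level was higher too, but hardly so in the scanner software's own log ratios (0.04), and it was lower after loess. The median RNA signal of the 121 GC-richest members exceeded that of other genes by 1.90, 1.83, 1.97 and 1.86 (log2) on arrays 1 to 4, a mean of 1.89 ± 0.06 (SD, n = 4), or 3.70-fold. Their median genomic DNA signal was higher by 0.50, 0.56, 0.47 and 0.50, a mean of 0.51 ± 0.04 (SD, n = 4), or 1.42-fold. The median level, in which the genomic DNA signal is divided out, was higher by 1.34, 1.02, 1.15 and 0.99, a mean of 1.13 ± 0.16 (SD, n = 4), or 2.18-fold, although it was lower after loess. This difference was larger on arrays 1 and 3 than on arrays 2 and 4. All 3 differences had the same sign on every array and exceeded the SD between arrays. That SD does not measure the spread over genes, which was an SD of 2.50 in level among the GC-richest members. No p was computed for the differences, since genes are not replicates. In scanner units the median RNA signal of the GC-richest members was 4546 to 6048 on the 4 arrays, against 1175 to 1691 in other genes.

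The difference in level depended on how the channels were scaled, and its direction was not the same under every scaling. It was 1.13 as computed above and 0.92 ± 0.10 (SD, n = 4) with normexp background correction. It was 0.04 ± 0.03 in the scanner software's own log ratios and -0.46 ± 0.06 after loess within each array, which bends the ratio to be flat over brightness. In other genes the distance between quartiles was 1.99 in RNA and 0.56 in genomic DNA, so brightness followed RNA more than genomic DNA. Loess can therefore also lower the level of genes bright in RNA, and cannot decide whether the level of this bright set differs. The differences in RNA and in genomic DNA alone kept their sign, at 1.86 and 0.88 with normexp.

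The tied members stood much nearer to other genes. Their median RNA signal was higher than that of other genes by 0.40 ± 0.05, their genomic DNA signal by 0.19 ± 0.03 and their level by 0.28 ± 0.09 (SD, n = 4 each). Against the 1598 genes of equal GC that name order left out, these differences were 0.13 ± 0.06, 0.07 ± 0.03 and 0.10 ± 0.08. The difference in level was little more than 1 SD between arrays. All 200 members together therefore mixed both sets, with differences from other genes of 0.95 ± 0.04 in RNA, 0.37 ± 0.02 in genomic DNA and 0.68 ± 0.07 in level (SD, n = 4 each). The last of these was -0.33 after loess.

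Counts of genes that passed a test gave the same order. A gene was called above or below the median gene when limma's test against a 2-fold difference gave an adjusted p under 0.05 over all 5192 genes tested. By level, 79 of the 200 members (39.5%) lay above the median gene, where 23.1% of all genes did. Below it lay 36 members (18%), where 21% of all genes did. The excess above was in the GC-richest members, with 58 of 121 (47.9%), whereas the tied members had 21 of 79 (26.6%). Below the median gene lay 25 of the GC-richest members (20.7%) and 11 of the tied members (13.9%). In the scanner log ratios, 19 of the GC-richest members lay above (15.7%), where 10.4% of all genes did. After loess 2 lay above (1.65%), where 5.05% of all genes did, against 23.1% without loess. Because loess flattens the ratio over brightness and these members are bright, it cannot decide whether the excess holds.

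By RNA signal, 90 of the 200 members (45.0%) lay above the median gene, where 23.6% of all genes did, and 28 (14.0%) lay below, where 19.5% of all genes did. The GC-richest members made up most of these, with 69 above (57.0%) and 20 below (16.5%). Of the 69, 58 were also above in level and 11 were not. The split was alike in other genes, where 973 were above in both and 162 in RNA but not in level. Conversely, 0 of the GC-richest members were above in level and not in RNA, against 149 of the other genes (2.98%).

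By genomic DNA signal, 24 members (12%) lay above the median gene, where 4.2% of all genes did, and 2 (1%) lay below, where 0.52% did. Of the 24, 22 were among the GC-richest members (18.2%). Below the median gene by genomic DNA, limma placed 0 of the GC-richest members (2 at an unadjusted p under 0.05) and 2 of the tied members. More of the GC-richest members were on the high side without passing the test, as 107 of 121 (88.4%) had a positive genomic DNA signal, against 48.9% of other genes. Of the 14 with a negative value, the lowest were Kwal_33.14209, at -1.13, and Kwal_47.18779, at -1.12.

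Levels of the GC-richest members were also more widely spread than those of other genes. Their SD over genes was 2.50, against 1.74 in other genes, and the distance between their quartiles was 3.38, against 1.97. A level above 3, or more than 8-fold over the median gene, was reached by 26 of the GC-richest members (21.5%), 5 tied members and 210 other genes (4.21%). A level above 4.5 was reached by 16 of the GC-richest members (13.2%), 3 tied members and 68 other genes (1.36%). At the other end, 3 of the GC-richest members (2.48%) lay below -3, against 273 other genes (5.47%). The order was reversed between -3 and -2, with 13 of the GC-richest members (10.7%), against 199 other genes (3.99%).

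**Figure D2:**
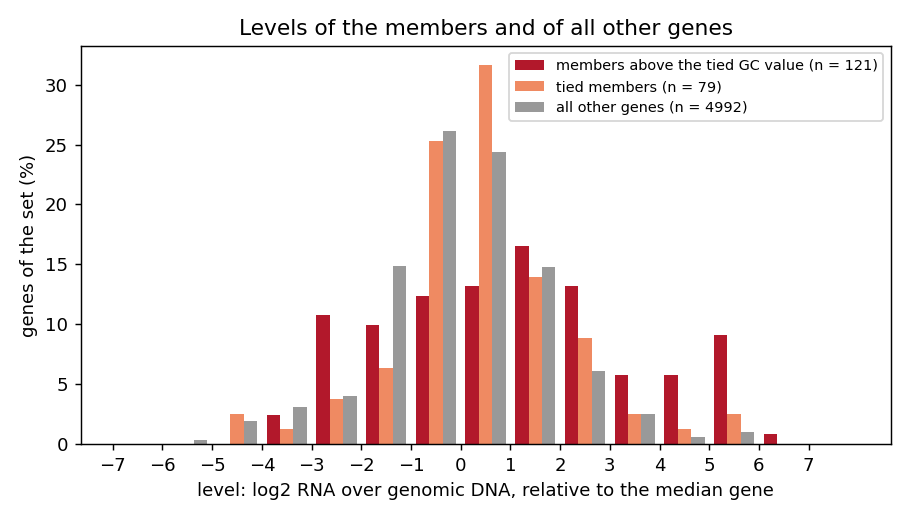
Share of genes (percent of each set) in classes of level 1 unit wide (log2 of RNA over genomic DNA, relative to the median gene) for the 121 members above the tied GC value, the 79 tied members and the 4992 other genes tested. The members above the tied value are spread more widely in these values without loess, and 13.2% of them lie above 4.5, against 1.36% of other genes.

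The differences were found in several strata of the genes. Among genes with separate probes, 51 GC-richest members exceeded 3343 other genes by 2.11 ± 0.11 in RNA, 0.51 ± 0.03 in genomic DNA and 1.08 ± 0.26 in level (SD, n = 4 each). Among genes whose probes overlapped by 50 bases or more, 25 GC-richest members exceeded 622 other genes by 1.23 ± 0.11, 0.43 ± 0.05 and 1.09 ± 0.11. On Kwal_14 alone, 11 GC-richest members exceeded 342 other genes by 1.51 ± 0.13, 0.85 ± 0.05 and 1.04 ± 0.11. With genes above 3 in level left out, a cut made on level itself, the difference in level was smaller. There 95 GC-richest members exceeded 4782 other genes by 1.11 ± 0.11, 0.39 ± 0.02 and 0.37 ± 0.10. With genes past the 2-fold genomic DNA test left out, 99 exceeded 4798 by 1.35 ± 0.05, 0.41 ± 0.02 and 0.94 ± 0.06. The sign was the same in each of these strata, all computed without loess.

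Between genes of like RNA signal, the GC-richest members had more genomic DNA signal and a lower level, which holds the genomic DNA signal with the opposite sign. In the 26 of them whose RNA signal lay within the middle 50% of genes, the genomic DNA signal exceeded that of 2524 other genes by 0.31 ± 0.003 and the level was lower, by -0.34 ± 0.04 (SD, n = 4 each). The genomic DNA signal rose with RNA in both sets. Where RNA lay below -1, the median genomic DNA signal was 0.17 in 22 GC-richest members, against -0.10 in 1180 other genes. Where RNA lay between -1 and 1 it was 0.27 in 24 GC-richest members, against -0.05 in 2510 other genes. It was 0.42 against 0.07 for RNA of 1 to 3 (35 GC-richest members and 1046 other genes), and 0.58 against 0.35 for RNA of 3 to 5 (22 and 184). Above 5 it was 1.24 in 18 GC-richest members, against 1.01 in 72 other genes. The GC-richest members were thus higher in genomic DNA in each class of RNA signal. A higher genomic DNA signal from more copies of a gene, from a probe that binds more target and from light of the other channel cannot be told apart in these arrays.

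**Figure D3:**
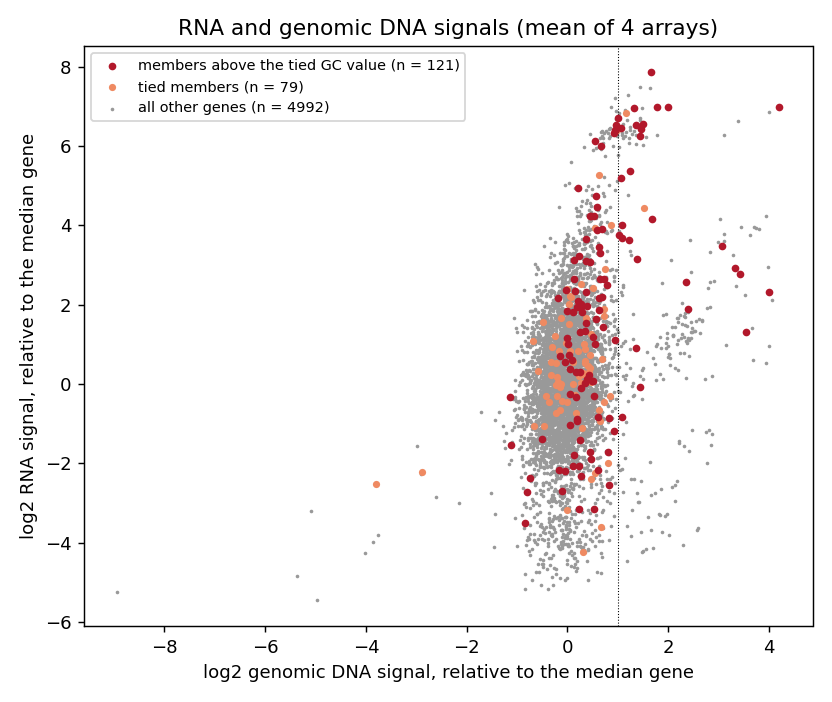
RNA signal (vertical, log2 relative to the median gene) against genomic DNA signal (horizontal, same scale) of each gene, as means of 4 arrays, for the 121 members above the tied GC value, the 79 tied members and the 4992 other genes tested. The dotted line marks 2-fold over the median gene in genomic DNA, and most members above the tied value lie right of 0.

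RNA and genomic DNA both rose across classes of GC up to a point above the tied value. From genes with 20 to under 21 GC bases per probe to those with exactly 24, the median genomic DNA signal rose step by step from class to class, -0.37, -0.23, -0.13, 0.01 and 0.12. It went on rising above the tied value, at 0.31, 0.49 and 0.68, and was 0.51 in the 42 genes of 29 to 30 GC bases. The SD of these medians over arrays was at most 0.05. In the same classes the median RNA signal was -0.54, -0.36, -0.26, 0.07 and 0.25 up to 24 GC bases, and 1.62, 2.20, 1.69 and 1.55 above. By medians, RNA was thus highest 1 class earlier than genomic DNA. Above 24 GC bases, the distances between quartiles of RNA over genes were 2.25 to 4.26. The median level, here without loess, changed little up to 24 GC bases, between -0.19 and 0.16, and then stood at 1.25 ± 0.09, 1.73 ± 0.09, 0.71 ± 0.09 and 0.53 ± 0.13 in the 4 classes above it (SD, n = 4 each). The median level was thus highest at 26 to under 27.5 GC bases, in 32 genes, and lower in the class of 29 to 30. Within the 4 classes above 24 GC bases, the distances between quartiles of level over genes were 4.34, 4.17, 3.24 and 3.04. SDs over arrays do not measure this spread, so the order of these 4 classes is uncertain in level and in RNA. The share of genes with a level above 3 was 1.55% in the poorest of these classes, 7.81% at 24 GC bases and 22.7%, 34.4%, 16% and 14.3% above. The classes above 24 GC bases hold 22, 32, 25 and 42 genes.

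**Figure D4:**
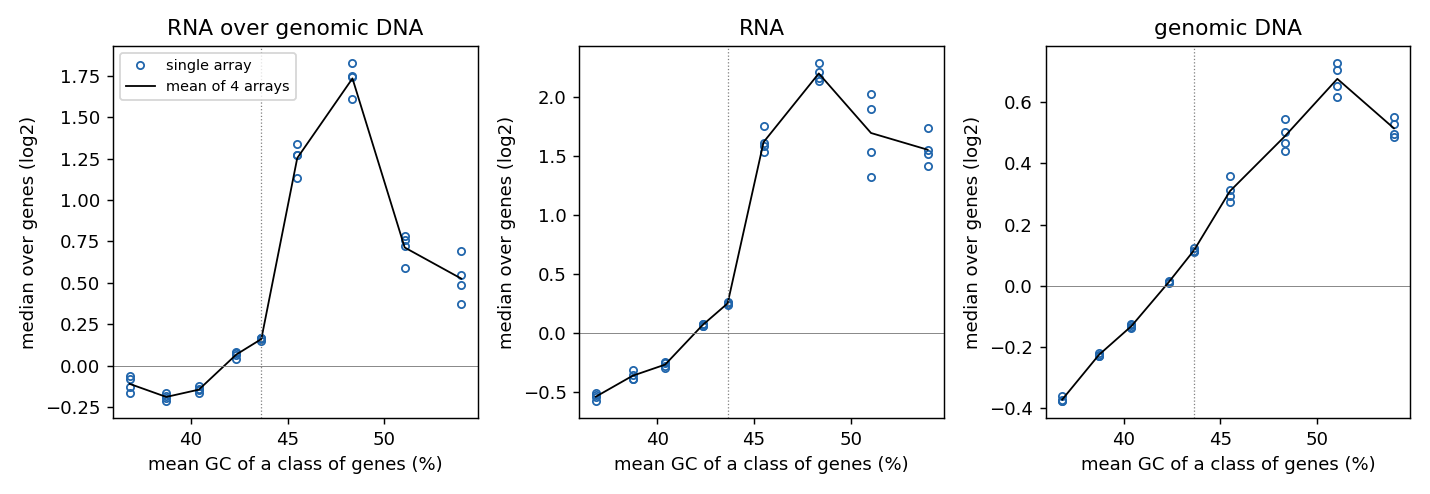
Median level, RNA signal and genomic DNA signal (log2, relative to the median gene) of genes in classes of mean probe GC (percent), with 1 circle per array, a line through the mean of 4 arrays and a dotted line at the tied value of 43.6%. Genomic DNA rises from -0.37 to 0.68 over the classes and is 0.51 in the last, while the level, here without loess, steps up above the tied value and is highest at 1.73.

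The 2 probes of a gene can be set against each other, since they stand for the same transcript and the same gene copies. Where the probes lie along a transcript was not known. Over 3232 genes with separate probes, of which 1994 had probes of unequal GC, the genomic DNA signal was higher by 0.47 ± 0.01 (log2) per 10 percentage points of GC (SD, n = 4). The RNA signal was higher by 0.36 ± 0.03 and the level was lower, by -0.12 ± 0.03, per 10 points. The GC-richer probe was thus higher in both channels, and lower in level. The slope of level depended on the scaling, at -0.29 with normexp, -0.54 in the scanner log ratios and -0.74 after loess. The GC-richest members have a mean GC of 50.3%, against 41.8% in other genes, a gap of 8.54 points. The slopes come mostly from probes within 20 to 24 GC bases, below the GC of most probes of the GC-richest members.

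**Figure D5:**
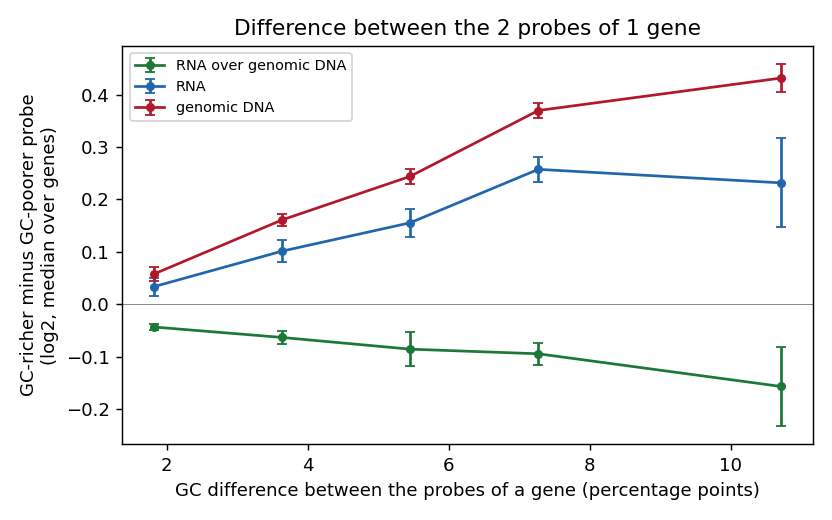
Difference between the GC-richer and the GC-poorer probe of a gene (log2, median over genes, mean of 4 arrays with bars of 1 SD) against their difference in GC (percentage points), for genes with separate probes and probes of unequal GC. At 4 bases of difference the richer probe was higher by 0.37 in genomic DNA and 0.26 in RNA, and the level differed by -0.09. The last points rest on 19 genes.

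A check within the members themselves was possible for 26 GC-richest members with separate probes of which 1 lay above 24 GC bases and 1 did not. The richer probe had a higher RNA signal in 19 of 26, with a median difference of 0.25 ± 0.07, and a higher genomic DNA signal in 16 of 26, with a median of 0.17 ± 0.05 (SD, n = 4 each). The level of the richer probe differed from that of the poorer by 0.06 ± 0.03 (higher in 15 of 26). In all 46 GC-richest members with separate probes of unequal GC, the richer probe exceeded the poorer by 0.12 ± 0.05 in RNA (higher in 28 of 46) and by 0.19 ± 0.04 in genomic DNA (30 of 46), and its level differed by -0.08 ± 0.01 (higher in 21 of 46; SD, n = 4 each). The sign of the difference in level was not the same in the 26 genes and in all 46, of which the 26 are part. That sign is uncertain, since SDs over arrays do not measure the spread over genes.

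The members of highest GC covered a wide range of levels. All 24 genes with 54.5% GC had both probes at 30 GC bases. By level, 12 of the 24 were called above the median gene, against 23.1% of all genes. Only 5 of the 24 were called below it, a share like the 21% of all genes. After loess 2 of all 121 GC-richest members were called above, so the number above depends on the scaling. Levels of the 24, here without loess, ran from -3.40 to 6.16, with a median of 0.96. The 4 described here are the first of these 24 by name order. Kwal_14.1333 stood at -3.40, -3.35, -3.32 and -3.52 on arrays 1 to 4, 10.52-fold below the median gene (limma, adjusted p = 1.07e-09). Its genomic DNA signal was 0.83 ± 0.07 (SD, n = 4), above the median gene on all arrays without passing the 2-fold test. Kwal_14.2239 had levels of -2.20, -2.38, -2.40 and -2.24 (limma, adjusted p = 7.37e-08). Both genes were thus low on every array, but after loess Kwal_14.2239 stood at -1.04 and no longer passed the 2-fold test.

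Kwal_23.4703, of the same GC, had levels of 2.29, 2.36, 2.47 and 2.44, 5.25-fold that of the median gene (limma, adjusted p = 2.11e-08). In genomic DNA it was 2.32-fold above (limma, adjusted p = 4.94e-05). It was on the other side of the median gene in the scanner log ratios, at -0.17, and after loess, at -1.20. Kwal_23.5021 lay near the median gene, with levels of 0.17, 0.05, -0.03 and 0.24.

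The most highly expressed members were as bright as any gene on the array. Kwal_56.23626, with both probes at 54.5% GC, had RNA signals of 292801, 358955, 329877 and 358974 units and genomic DNA signals of 26001, 30627, 27894 and 29224 units on arrays 1 to 4. Its RNA signal ranked 1 and its level ranked 2 of all 5192 genes, with levels of 6.21, 6.03, 6.32 and 6.15. This is 71.5 times the level of the median gene (limma, adjusted p = 5.69e-11). Its level was 1.15 in the scanner log ratios and -0.41 after loess, and passed the 2-fold test in neither. No spot of a member was marked as saturated.

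Kwal_14.1382, with a mean GC of 44.5%, had levels of 5.70, 5.74, 5.71 and 5.63. Its probes are separate, and the one with 25 GC bases gave 5.99 ± 0.11, against 5.41 ± 0.04 for the one with 24 (SD, n = 4 each). Kwal_14.1302, measured by 1 used probe of 52.7% GC, had levels of 5.74, 5.68, 5.69 and 5.46. Kwal_14.1060, a tied member, had levels of 5.81, 5.49, 5.79 and 5.47. These genes lay close together, and the ranges of their arrays overlap. After loess none of the 3 passed the 2-fold test, with levels of 0.29 (Kwal_14.1382), -0.15 (Kwal_14.1302) and 0.03 (Kwal_14.1060), and in the scanner log ratios they stood at 1.56, 1.21 and 1.34.

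The 16 GC-richest members above a level of 4.5 carried 7 prefixes, and 6 of them had separate probes. Their genomic DNA signals ran from 0.21 to 2.0, with a median of 1.19, and 8 passed the 2-fold test in genomic DNA. The 68 other genes above 4.5 had genomic DNA signals from -0.17 to 1.64, with a median of 0.98, and 22 passed. The genomic DNA signal was positive in all 16 of the GC-richest members and in 66 of the 68 other genes.

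The lowest members named by rule were above the negative controls in RNA. Kwal_14.1197, a tied member, had levels of -4.18, -4.23, -4.21 and -4.58, 19.5-fold below the median gene (limma, adjusted p = 7.68e-10). Its RNA signals were 108.2, 149.8, 120.5 and 99.8 units, against 27.5 to 37 units in negative controls. Kwal_55.19872 had levels of -3.34, -3.48, -3.74 and -4.23 (limma, adjusted p = 1.59e-07), and Kwal_33.14509 had -3.31, -3.35, -3.38 and -3.49 (limma, adjusted p = 1.80e-09). After loess Kwal_33.14509 stood at -1.03 and no longer passed. The genomic DNA signals of Kwal_55.19872 and Kwal_33.14509, 0.52 and 0.22, were on the high side of the median gene. RNA was not well above background in 0 of the GC-richest members, in 1 tied member (Kwal_0.191, with a level of -4.56) and in 131 other genes (2.62%).

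Most of the highest genomic DNA signals among the members came in runs of neighbouring genes. Kwal_47.16825 had genomic DNA signals of 4.09, 4.38, 4.02 and 4.29 on arrays 1 to 4, 18.5 times that of the median gene (limma, adjusted p = 1.98e-17) and the highest of all 5192 genes. Its RNA signal was 7.0 and ranked 6, and its level was 2.76 ± 0.32 (SD, n = 4). The level was -3.06 in the scanner log ratios and -4.83 after loess. Chosen after the values were seen, the genes next to it by identifier were also high. The run from Kwal_47.16805 to Kwal_47.16834 holds 6 genes called above the median gene in genomic DNA, 4 of them among the GC-richest members, with signals from 2.36 to 4.21. The other 2, Kwal_47.16813 (3.44, 42.7% GC) and Kwal_47.16834 (3.12, 43.6% GC), had higher signals than 3 of the 4 GC-richest members, which had 3.06, 2.40 and 2.36. Their RNA signals ran from 1.89 to 7.0 and their levels from -0.56 to 3.16.

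Kwal_56.22277 had genomic DNA signals of 3.95, 4.23, 3.799 and 3.82, 16 times that of the median gene (limma, adjusted p = 1.41e-16). Its RNA signal was also high, at 2.33, but its level was low, at -2.01, -1.34, -1.66 and -1.505 (limma, adjusted p = 0.000292). Of the 121 GC-richest members it was the 1 gene called above in RNA and below in level. Its neighbour Kwal_56.22278, a gene of 43.6% GC and no member, had a genomic DNA signal of 3.16. Kwal_23.5441 had genomic DNA signals of 3.57, 3.42, 3.52 and 3.41 (limma, adjusted p = 1.34e-15) and levels of -1.70, -2.61, -1.90 and -2.59, higher on arrays 1 and 3 than on arrays 2 and 4.

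A further run, from Kwal_55.19500 to Kwal_55.19514, holds 6 genes called above in genomic DNA. The 2 GC-richest members among them, Kwal_55.19504 (3.33) and Kwal_55.19506 (3.43), had higher signals than the 4 genes of 42.7% or 43.6% GC around them, which ran from 2.02 to 2.24. This order was not that of the run on Kwal_47. In all, a genomic DNA signal above 2 was found in 9 of the GC-richest members (7.44%), against 101 other genes (2.02%). Of the 9, 7 lie in these runs of 2 or 6 genes, where genes of usual GC were high as well.

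The lowest genomic DNA signals among the members belonged to tied members. Kwal_14.1059 had -3.75, -3.98, -3.58 and -3.81, 13.9-fold below the median gene (limma, adjusted p = 4.70e-17), and Kwal_14.1341 had -2.83, -2.91, -2.71 and -3.01, 7.39-fold below (limma, adjusted p = 5.51e-16). Both were also low in RNA, at -2.52 and -2.23, with 220 to 303 and 266 to 375 units. Their levels of 1.25 and 0.62 depended strongly on the scaling. Kwal_14.1059 stood at -0.65 with normexp, 5.19 in the scanner log ratios and 6.70 after loess. Kwal_14.1341 stood at -0.47 with normexp, and at 3.47 and 4.97 in the scanner log ratios and after loess, where it passed the 2-fold test (limma, adjusted p = 7.36e-07 and 4.51e-13). By identifier each stands beside a member of very high level, Kwal_14.1060 (5.66) and Kwal_14.1342 (5.45). Kwal_33.14209, the lowest of the GC-richest members in genomic DNA, had -0.95, -1.29, -0.92 and -1.39 and did not pass the 2-fold test in genomic DNA (limma, adjusted p = 0.540).

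Levels of the GC-richest members repeated slightly less closely between arrays than those of other genes. The median SD over arrays was 0.129 in the GC-richest members, against 0.102 in other genes, and a 95th percentile of 0.384, against 0.252. Outlier spots led to the loss of 10 of their 242 probes (4.13%), against 2.40% in other genes, and 10 of the 121 genes rest on 1 probe. Among genes with separate probes, the level differed more than 2-fold between probes in 4 of 49 GC-richest members (8.16%), against 5.17% of other genes. That share rests on 4 genes, and the median gap between separate probes was alike, at 0.304 against 0.308.

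The widest gap between probes was in Kwal_34.15831, whose probes overlap by 40 bases. Its probe of 54.5% GC gave a level of -1.53 ± 0.05, whereas that of 52.7% GC gave 2.41 ± 0.16 (SD, n = 4 each). Their genomic DNA signals were alike, at 0.43 and 0.65, so that the gap lay in RNA, at -1.08 and 3.07. The gene's level of 0.44 is thus the middle of unlike probes, and it was -0.47 in the scanner log ratios and -0.75 after loess. The largest SD over arrays was in Kwal_56.24020, with levels of 0.36 and 0.22 on arrays 1 and 3 and -0.89 and -1.04 on arrays 2 and 4. Its RNA signals were 0.84 and 0.58 on arrays 1 and 3 and -0.65 and -0.64 on arrays 2 and 4, whereas its genomic DNA signals lay between 0.22 and 0.46.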

How the data were processed

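For every spot, the deposited scanner files give intensity values of both channels and of the local background, which the authors extracted with Agilent Feature Extraction (version 10.1.1.1 per the file headers). They also hold a deposited log10 ratio made by that software after dye normalization, used as an alternative with its sign reversed so that RNA is on top. The authors' gene table was not used, since its rows match no probe column.

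Following the methods of the study, the median background was subtracted from the median signal and log2 was taken. Probes marked as outliers on any array (254) or without positive signal (1) were left out, and 10131 were used. Gene values, medians over probes, were quantile normalised and centred on the median gene. Differences between sets, values by array and SDs use centred values without quantile normalization. Genes were called with limma 3.58.1 (R 4.3.3), treat with a log2 bound of 1, two-sided, Benjamini-Hochberg at 0.05 over 5192 genes. The steps were tested on simulated data. The methods call the arrays biological replicates, but the labels name no separate cultures, so p-values measure the spread between these arrays, and their number limits the precision.

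The members, sets and lists were chosen with earlier results of these data known. Genes named by rule are the members with the 4 highest GC (ties by name order), the 4 highest and 4 lowest levels (called, with RNA well above background), the 3 highest and 3 lowest genomic DNA signals, the widest probe gap and the largest SD, and the genes at the edge of the rule. Others were named after their values were seen. Alternatives changed background correction, normalization, averaging of probes, filters, bound, member number and handling of ties, and left out each array. The files pair identifiers with no gene names or positions, so roles of single genes are not given.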

Additional observations from a re-analysis of the deposited data

Results flagged for a closer look

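Of 33 measures of named genes compared over the 4 arrays, 1 had an array far from the others, where chance gives about 1 in 20. The level of Kwal_14.1197 was -4.58 on array 4, against -4.23 to -4.18 on the other arrays, and the gap was 0.888 of the range which is past Dixon's 95% limit for 4 samples. Its RNA signal on array 4 was 99.8 units.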

How the results depend on the processing

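With each array left out in turn, the share of the 200 members above the median gene was 39.5% to 40.0% in level, 44.5% to 45.5% in RNA and 11.5% to 12% in genomic DNA, and the share below was 17.5% to 18%, 14.0% to 14.5% and 1% to 1.5%. The differences from other genes were 0.65 to 0.71 in level, 0.93 to 0.96 in RNA and 0.36 to 0.38 in genomic DNA, and the slopes on GC per 10 points were -0.13 to -0.10, 0.34 to 0.37 and 0.47 to 0.48.

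The share of members above the median gene by level, 39.5%, was 3% after loess, where 5.05% of all genes lay above. In the scanner log ratios it was 13.5%, where 10.4% of all genes lay above. A bound of 4-fold gave 25% above and 8% below by level, 7.50% below by RNA and 3.50% above by genomic DNA. Shares of all genes at that bound are not given here, so these values cannot be set against the shares of all genes at 2-fold. The difference in level, 0.68, was -0.33 after loess, 0.061 in the scanner log ratios and 0.52 with normexp. Normexp gave a genomic DNA difference of 0.63, with 27.5% of members above, where 9.26% of all genes were. With 100 genes of highest GC they were 1.12 in level, 1.89 in RNA and 0.54 in genomic DNA, with 20% above and 0% below by genomic DNA. With 400 genes they were 0.27, 0.45 and 0.23, with 7.50% above by genomic DNA. Without genes whose probes overlap they were 0.29 in level and 0.69 in RNA, with 0% below by genomic DNA.

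The next 3 alternatives were added after seeing the data. With the members above the tied value alone, the differences were 1.13, 1.89 and 0.51 in level, RNA and genomic DNA, with 18.2% above by genomic DNA and 0% below. With ties taken from the end of the name order, RNA differed by 1.14 and genomic DNA by 0.30, with 0% below by genomic DNA. Without the prefixes of the tied members, the differences were 1.15, 1.89 and 0.49, with 0% below by genomic DNA.

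Among the alternatives fixed at the start, the slope of level on GC, -0.12, was -0.29 with normexp, -0.74 after loess and -0.54 in the scanner log ratios. Only 51 genes had a mean GC above the 75th percentile, against 1994 genes in the main setting. In these 51 the slope of level was -0.27, that of RNA 0.24 and that of genomic DNA 0.51. The slope of genomic DNA, 0.47, was 0.63 with normexp, 0.48 with outlier spots kept, 0.45 without genes with a dim RNA probe and 0.48 with mean pixel intensity.

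Levels of single genes changed sign after loess in Kwal_23.4703 (-1.20), Kwal_23.5021 (-0.24), Kwal_56.23626 (-0.41), Kwal_14.1302 (-0.15), Kwal_47.16825 (-4.83) and Kwal_34.15831 (-0.75). In the scanner log ratios Kwal_23.4703 (-0.17), Kwal_23.5021 (-0.16), Kwal_47.16825 (-3.06) and Kwal_34.15831 (-0.47) changed sign, and with normexp Kwal_14.1059 (-0.65) and Kwal_14.1341 (-0.47). After loess Kwal_14.2239 (-1.04), Kwal_33.14509 (-1.03), Kwal_14.1382 (0.29), Kwal_14.1060 (0.03), Kwal_14.1578 (0.26) and Kwal_14.1606 (0.58) no longer passed the 2-fold test, whereas Kwal_14.1341 (4.97) and Kwal_33.14209 (1.78) passed it. The cause of these changes was not tested. No paired analysis was possible because the arrays form 1 group. All arrays lay on 1 slide, so a batch could not be tested.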
